A study of Mus musculus with 12 samples.

Results

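The genes described here are 8 genes of lipopolysaccharide sensing and the acute-phase response, namely Lbp, Lcn2, Cd14, Tlr2, Tlr4, Ly96, Myd88 and Il1r1, in the striatum of mice sensitised to morphine. Members were the probe sets whose single gene symbol is one of these 8 names. Of the 8, 7 had a probe set, 1 each, among 21780 probe sets with a single symbol that cover 19935 genes, and Il1r1 was not analysed here. The set was put together with the differences from saline of these arrays in view, so these differences are given as a description, without a test.

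RNA was from the striatum of male Swiss-Albino mice aged 2 months, and each array held equal amounts of RNA from 4 mice. ButMorphine mice (3 arrays) received sodium butyrate, a short-chain fatty acid that inhibits histone deacetylases, at 300 mg/kg with each of 6 injections of morphine at 20 mg/kg, and morphine again 7 days later. SalMorphine mice (3 arrays) received vehicle in place of butyrate and the same morphine. Saline mice (6 arrays) received vehicle with vehicle, and the source names give a saline challenge, whereas the protocol text says that all animals were challenged with morphine. RNA was taken 1 h after the challenge, so each morphine group differs from Saline in the repeated injections and, if the source names hold, in the last injection too.

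Lipopolysaccharide, the endotoxin of Gram-negative bacteria, is picked up by LBP, a plasma protein made mainly by the liver, and handed to CD14. CD14 passes it to the receptor pair of TLR4 and MD-2, which is the product of Ly96. TLR4, TLR2 and the interleukin 1 receptor all signal through the adaptor MyD88 to NF-kappaB. In the brain, microglia are the main cells that carry TLR4 and TLR2. Lipocalin 2, from Lcn2, binds bacterial siderophores and is a classic product of reactive astrocytes and of the acute phase.

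The promoter windows of Tlr2, Myd88 and Lcn2 are printed because Tlr2 and Myd88 lay below the baseline in every morphine array and Lcn2 is the member that varied most within groups. Each window is from RefSeq on GRCm38.p6 and runs from 250 bases before the annotated start to 50 bases after it, and all 3 are on the minus strand. The RefSeq table held windows for 4 of the 8 members, the fourth being Il1r1, and none for Lbp, Cd14, Tlr4 or Ly96. Capitals mark every match, on either strand, to the NF-kappaB motif (searched by its usual degenerate letters), to C/EBP (TTNNGNAA), to STAT (TTCNNNGAA) or to the glucocorticoid response element, also searched by its usual letters.
Tlr2, chr3:83841559-83841858: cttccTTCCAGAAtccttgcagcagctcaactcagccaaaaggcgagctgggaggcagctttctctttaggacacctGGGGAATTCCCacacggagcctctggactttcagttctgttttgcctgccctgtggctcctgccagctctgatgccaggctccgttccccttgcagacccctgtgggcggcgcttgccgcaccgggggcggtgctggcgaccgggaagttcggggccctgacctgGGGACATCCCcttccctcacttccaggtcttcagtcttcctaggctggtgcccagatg
Myd88, chr9:119339969-119340268: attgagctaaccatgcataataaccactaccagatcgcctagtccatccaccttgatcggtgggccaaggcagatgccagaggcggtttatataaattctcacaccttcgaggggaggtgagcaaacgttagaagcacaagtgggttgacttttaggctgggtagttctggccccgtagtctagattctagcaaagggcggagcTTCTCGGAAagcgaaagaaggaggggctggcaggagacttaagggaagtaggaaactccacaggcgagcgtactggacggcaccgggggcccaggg
Lcn2, chr2:32387690-32387989: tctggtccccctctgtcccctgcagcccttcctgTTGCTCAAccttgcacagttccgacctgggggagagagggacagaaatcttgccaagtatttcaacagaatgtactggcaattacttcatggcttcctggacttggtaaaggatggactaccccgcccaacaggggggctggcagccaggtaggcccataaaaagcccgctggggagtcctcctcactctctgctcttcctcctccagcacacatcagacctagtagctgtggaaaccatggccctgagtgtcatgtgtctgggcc
Counting from 1 at the 5′ end, the Tlr2 window held a C/EBP match at bases 6 to 13, an NF-kappaB match at 78 to 87 that overlaps a further one at 79 to 88, and another NF-kappaB match at 243 to 252. The Myd88 window held a STAT match at bases 205 to 213, and the Lcn2 window a C/EBP match at bases 35 to 42. Of 32851 windows in the table, 8.46% held the NF-kappaB motif, 40.7% C/EBP, 8.30% STAT and 0.475% the glucocorticoid response element, so a C/EBP match is common by itself. These matches are letters in a window and were not measured as binding.

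The deposited values are differences per probe set from a baseline, taken here as log2, so they give no level, genes cannot be ranked by abundance, and whether the defining markers of striatum are present cannot be read from them. Saline arrays 1 and 2, 3 and 4, and 5 and 6 mirror each other around 0 in every row. Over 28815 rows, the 6 morphine arrays shared 72 exactly equal values with Saline 1 or 2 over 12 pairs of arrays, and 2 with Saline 3 to 6 over 24 pairs, so the morphine arrays share the baseline of Saline 1 and 2. Saline 3 to 6 therefore bring in only the spread within their own pairs. Counts are given from a limma fit on all 12 arrays and, beside it, from a fit on the 8 arrays with Saline 1 and 2 as Saline, and "rose" or "fell" is kept for genes past an adjusted p of 0.05 in both. Each array is 1 pool, so the spread behind the p-values is that between pools. The 12-array fit counts the mirrored Saline arrays as separate, as if the baseline rested on all 6. Its p-values against Saline are therefore too small, and a call in that fit alone carries this limit. In SalMorphine against Saline it called 534 probe sets, and the 8-array fit, which has fewer arrays, 37.

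Lbp was the 1 member with a large difference. Its log2 difference from baseline was 1.18, 1.07 and 1.41 in the ButMorphine arrays, 1.63, 1.72 and 1.66 in the SalMorphine arrays, and between -0.15 and 0.15 around a median of 0 in the Saline arrays, with Saline 1 and 2 at -0.09 and 0.09. All 6 morphine arrays lay above every Saline array, and the 3 groups did not overlap. The mean was 1.22 ± 0.18 in ButMorphine (SD, n = 3), which is 2.33-fold over Saline, and 1.67 ± 0.05 in SalMorphine (SD, n = 3), which is 3.19-fold over Saline. Quantile normalization, which narrows centred values, lowered these means to 0.86 in ButMorphine and 1.01 in SalMorphine. The next highest mean among the members was 0.10, that of Lcn2 in ButMorphine.

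The members that take lipopolysaccharide on from LBP, namely Cd14, Tlr4 and Ly96, had morphine group means between -0.13 and 0.05. Cd14 stood at -0.31, -0.03 and -0.06 in ButMorphine and at -0.14, 0.04 and -0.03 in SalMorphine, against -0.11 to 0.11 in Saline. Its lowest values were in array 1 of each morphine group, and the other morphine arrays lay inside the Saline range. Tlr4, the signalling receptor, stood at 0.02, 0.10 and 0.00 in ButMorphine and at 0.01, -0.05 and -0.00 in SalMorphine, against -0.02 to 0.02 in Saline. Only ButMorphine 2 and SalMorphine 2 were outside the Saline range, on opposite sides. Ly96, whose product MD-2 holds the lipid, stood at 0.08, 0.07 and -0.02 in ButMorphine and at -0.02, -0.05 and -0.00 in SalMorphine, against -0.08 to 0.08 in Saline. Its groups overlapped. Tlr4 and Ly96 encode both parts of the receptor complex. They correlated at r = 0.64 over the 12 arrays and at 0.78 over the 6 morphine arrays. Other pairs of members were larger in size, with Lbp and Ly96 at -0.92 and Lbp and Tlr4 at -0.81 over the morphine arrays. Over the 12 arrays Lbp correlated at -0.77 with Myd88 and at -0.76 with Tlr2. All of these are a description over arrays that share a baseline.

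Tlr2, the receptor for bacterial lipopeptides, and Myd88, the shared adaptor, were the members with values below the baseline in every morphine array. Tlr2 stood at -0.13, -0.15 and -0.05 in ButMorphine and at -0.10, -0.11 and -0.09 in SalMorphine, against -0.05 to 0.05 in Saline. The 3 SalMorphine arrays and 2 of 3 ButMorphine arrays lay below every Saline array. The means were -0.11 ± 0.05 in ButMorphine and -0.10 ± 0.01 in SalMorphine (SD, n = 3 each), or 0.928-fold and 0.933-fold of Saline.

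Myd88 stood at -0.32, -0.15 and -0.09 in ButMorphine and at -0.30, -0.29 and -0.26 in SalMorphine, against -0.22 to 0.22 in Saline. Both Saline extremes were arrays 5 and 6, and the other 4 Saline arrays lay between -0.03 and 0.03. The 3 SalMorphine arrays and 1 of 3 ButMorphine arrays were below every Saline array. The means were -0.19 ± 0.12 in ButMorphine, 0.879-fold of Saline, and -0.29 ± 0.02 in SalMorphine, 0.820-fold of Saline (SD, n = 3 each). Without ButMorphine 1 the ButMorphine mean was -0.12. Lcn2, the acute-phase lipocalin, varied most within groups. It stood at -0.11, 0.38 and 0.02 in ButMorphine and at -0.01, 0.19 and -0.08 in SalMorphine, against -0.25 to 0.25 in Saline. Its highest value was ButMorphine 2 and its groups overlapped throughout.

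**Figure D1:**
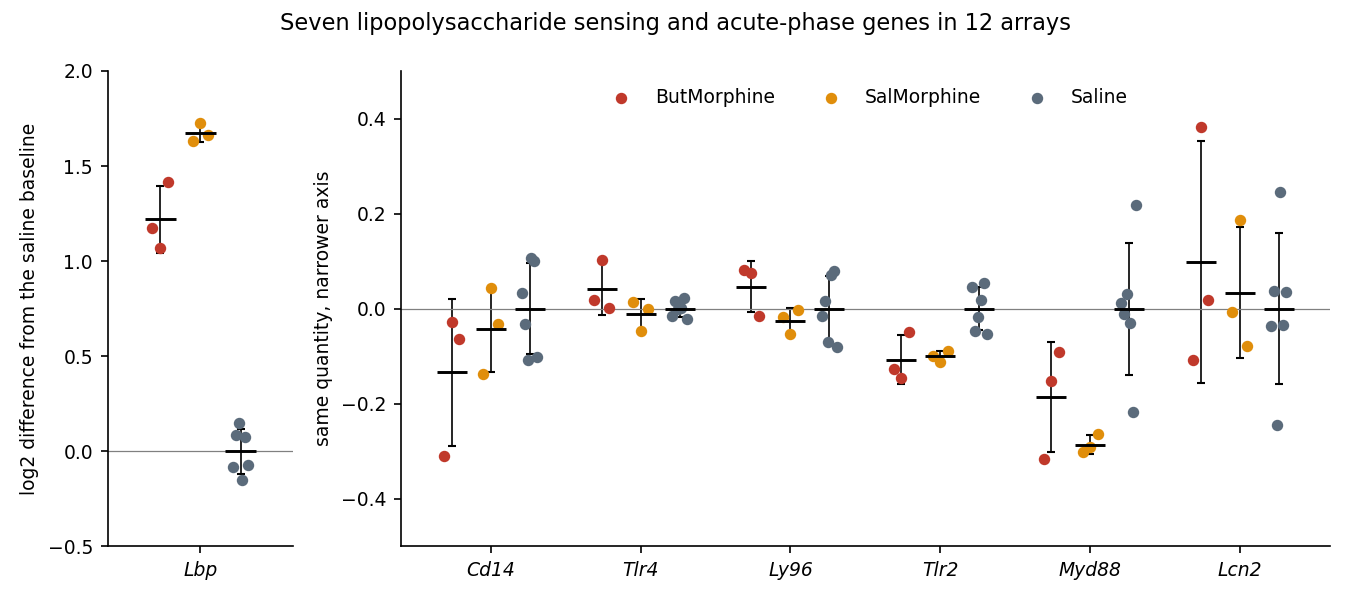
Log2 difference from the saline baseline (y axis) of the 7 measured members, Lbp on its own wider axis, by group from left to right ButMorphine, SalMorphine and Saline. Points are arrays, horizontal bars group means and whiskers the SD. Lbp lies between 1.07 and 1.72 in the morphine arrays, whereas the other members stay within -0.32 and 0.38.

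Past the threshold of the fits, Lbp alone was counted among the 7 members, as higher than Saline in both morphine groups and in both fits. In the 12-array fit 1.76% of all probe sets were called higher and 0.592% lower in ButMorphine against Saline, and 1.3% higher and 1.15% lower in SalMorphine against Saline. In the 8-array fit these shares were 0.147% higher and 0.023% lower in ButMorphine, and 0.142% higher and 0.0275% lower in SalMorphine. Because these contrasts chose the members, nothing is read from the counts. All 3 arrays lay above the Saline range for Lbp in both groups, as they did for 7.22% of all probe sets in ButMorphine and 3.93% in SalMorphine. All 3 SalMorphine arrays lay below it for Tlr2 and Myd88, as for 4.17% of all probe sets. The median over the members was 0.04 in ButMorphine and -0.03 in SalMorphine, against 0.01 and -0.00 over all probe sets.

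The comparison of ButMorphine with SalMorphine asks what butyrate changed beside the same morphine. It uses the arrays that chose the members, though not the same difference. No member passed the threshold in either fit, and 0.0% of all probe sets did, with 1898 at an unadjusted p under 0.05 in the 12-array fit and 1427 in the 8-array fit. Lbp was lower with butyrate by a log2 difference of -0.45 (SE 0.09), or 0.730-fold, with a limma adjusted p of 0.228 in the 12-array fit and 0.731 in the 8-array fit. Under quantile normalization, which gives equally ranked rows the same value in every array, the difference was -0.15. The same step put Ttr, a marker named below, at 1.90 in both morphine groups, so -0.15 is no separate estimate. The 95% interval, not adjusted for the number of probe sets, ran from -0.65 to -0.26. All 3 ButMorphine arrays lay below all 3 SalMorphine arrays, as did those of 3.11% of all probe sets. For the other 6 members the limma adjusted p lay between 0.730 for Ly96 and 0.983 for Tlr2. Their intervals were -0.27 to 0.08 for Cd14, -0.21 to 0.34 for Lcn2, -0.04 to 0.18 for Ly96, -0.09 to 0.28 for Myd88, -0.10 to 0.08 for Tlr2 and -0.03 to 0.13 for Tlr4. These intervals do not show that the groups were alike.

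The genes around the members were taken from 9 textbook lists, written with earlier results of these data known. Of 142 measured genes of 157 listed, 7 were called higher and 1 lower against Saline in each morphine group in the 12-array fit. A gene counts as called where at least 1 of its probe sets passed. Over all probe sets, 1.76% were called higher and 0.592% lower in ButMorphine, and 1.3% and 1.15% in SalMorphine. In the 8-array fit 3 of the listed genes were called higher in ButMorphine and 1 in SalMorphine, and none lower. There 0.147% and 0.142% of all probe sets were called higher, and 0.023% and 0.0275% lower. In the 12-array fit, the 7 higher calls became 4 in ButMorphine without Saline 2 or Saline 4, and 4 in SalMorphine without SalMorphine 3. The median difference over the 142 genes was 0.01 in each group. Between ButMorphine and SalMorphine none was called in either fit.

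The genes of these lists that passed both fits were Dusp1, Nfkbia and Tsc22d3 in ButMorphine and Nfkbia in SalMorphine, all from the list of negative regulators of Toll-like and interleukin 1 receptor signalling. Of 17 genes in that list, 3 were called higher in each group in the 12-array fit, where 1.76% of all probe sets were in ButMorphine and 1.3% in SalMorphine. The list was written with these results known, so its count is no independent evidence of its direction. In ButMorphine, Dusp1, a phosphatase that switches off MAP kinases, rose 2.17-fold (log2 difference 1.12 ± 0.19, SD, n = 3, adjusted p = 4.77e-06 with 12 arrays and 0.0130 with 8, limma). Nfkbia, which encodes the inhibitor that holds NF-kappaB in the cytoplasm and is itself an NF-kappaB target, rose 1.67-fold in ButMorphine (0.74 ± 0.07, adjusted p = 8.10e-06 and 0.00991). Tsc22d3, also called GILZ, a glucocorticoid-induced inhibitor of NF-kappaB and AP-1, rose 1.50-fold in ButMorphine (0.58 ± 0.04, adjusted p = 9.07e-05 and 0.0475).

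In SalMorphine, Nfkbia rose 1.56-fold (0.64 ± 0.11, SD, n = 3, adjusted p = 2.71e-05 with 12 arrays and 0.0204 with 8, limma). Dusp1 stood at 0.76 ± 0.09 and Tsc22d3 at 0.48 ± 0.15 in SalMorphine, and both passed only in the 12-array fit, with adjusted p = 0.0744 and 0.116 in the 8-array fit. Under quantile normalization Dusp1 stood at 0.50 in SalMorphine. In all 6 morphine arrays each of the 3 genes was above every Saline array. All 3 are also known as immediate early or glucocorticoid-responsive genes in many tissues. The other 14 genes of the list did not pass in either group. The list's median was 0.03 in ButMorphine and -0.03 in SalMorphine, whereas its mean was 0.14 and 0.07, so in SalMorphine the median and the mean differ in sign.

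The receptors and kinases of the pathway gave no call. This held in both fits for the 15 measured other Toll-like receptors and lipopolysaccharide-binding proteins and for the 18 measured adaptors and kinases. Tlr1, the partner of TLR2, stood at 0.12 ± 0.05 in ButMorphine and 0.10 ± 0.03 in SalMorphine, and Cd180, a TLR4-like regulator of B cells, at -0.14 ± 0.09 and -0.10 ± 0.03 (SD, n = 3 each). Ikbkb, the kinase that marks the NF-kappaB inhibitor for degradation, stood at -0.10 ± 0.06 in ButMorphine and -0.13 ± 0.13 in SalMorphine, and Map3k8, a kinase upstream of ERK, at 0.08 ± 0.03 and 0.12 ± 0.03. Of 12 interleukin 1 family genes, Il18bp, a decoy for interleukin 18, was called higher in SalMorphine in the 12-array fit only (0.18 ± 0.06).

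The transcripts that lipopolysaccharide typically induces gave no call among 22 measured, and their median was -0.00 in ButMorphine and 0.00 in SalMorphine. Il1b, Il6 and Tnf, the classic inflammatory cytokines, lay outside the naming rule and were chosen after their values were seen. Il1b stood at 0.01 ± 0.04 in ButMorphine and -0.04 ± 0.07 in SalMorphine, Il6 at 0.01 ± 0.02 and -0.01 ± 0.01, and Tnf at -0.06 ± 0.10 and -0.06 ± 0.10 (SD, n = 3 each). The chemokine Ccl5 stood at -0.01 ± 0.02 in ButMorphine and 0.09 ± 0.12 in SalMorphine, and Ptx3, a long pentraxin, at -0.05 ± 0.02 and -0.08 ± 0.06. All 11 interferon branch genes also missed the threshold, and 9 of them lay below 0 in each morphine group. Ifit2 stood at -0.04 ± 0.08 in ButMorphine and -0.10 ± 0.05 in SalMorphine, and Ifit3 at 0.15 ± 0.02 and 0.11 ± 0.08 (SD, n = 3 each).

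None of 27 other measured acute-phase plasma proteins passed in both fits. In the 12-array fit, Serpina3n, a serine protease inhibitor of reactive astrocytes, was called higher in ButMorphine (0.27 ± 0.12) and A2m, a protease-trapping plasma protein, in SalMorphine (0.34 ± 0.13). Rbp4, the retinol carrier, whose plasma level falls in the acute phase, was called lower in both, at -0.18 ± 0.07 in ButMorphine and -0.27 ± 0.06 in SalMorphine. On the interleukin 6 and STAT3 axis, which drives hepatic acute-phase genes, 2 of 17 measured genes were called higher in ButMorphine and 1 in SalMorphine, again in the 12-array fit only. They were Lifr, the leukaemia inhibitory factor receptor, at 0.40 ± 0.11 in ButMorphine and 0.31 ± 0.08 in SalMorphine, and Cebpd, an acute-phase transcription factor, at 0.20 ± 0.07 in ButMorphine. Of 5 genes tied to siderophores or to lipocalin 2, Mc4r, a melanocortin receptor that lipocalin 2 can bind, passed in both groups in the 12-array fit only, at 0.25 ± 0.12 in ButMorphine and 0.25 ± 0.05 in SalMorphine.

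**Figure D2:**
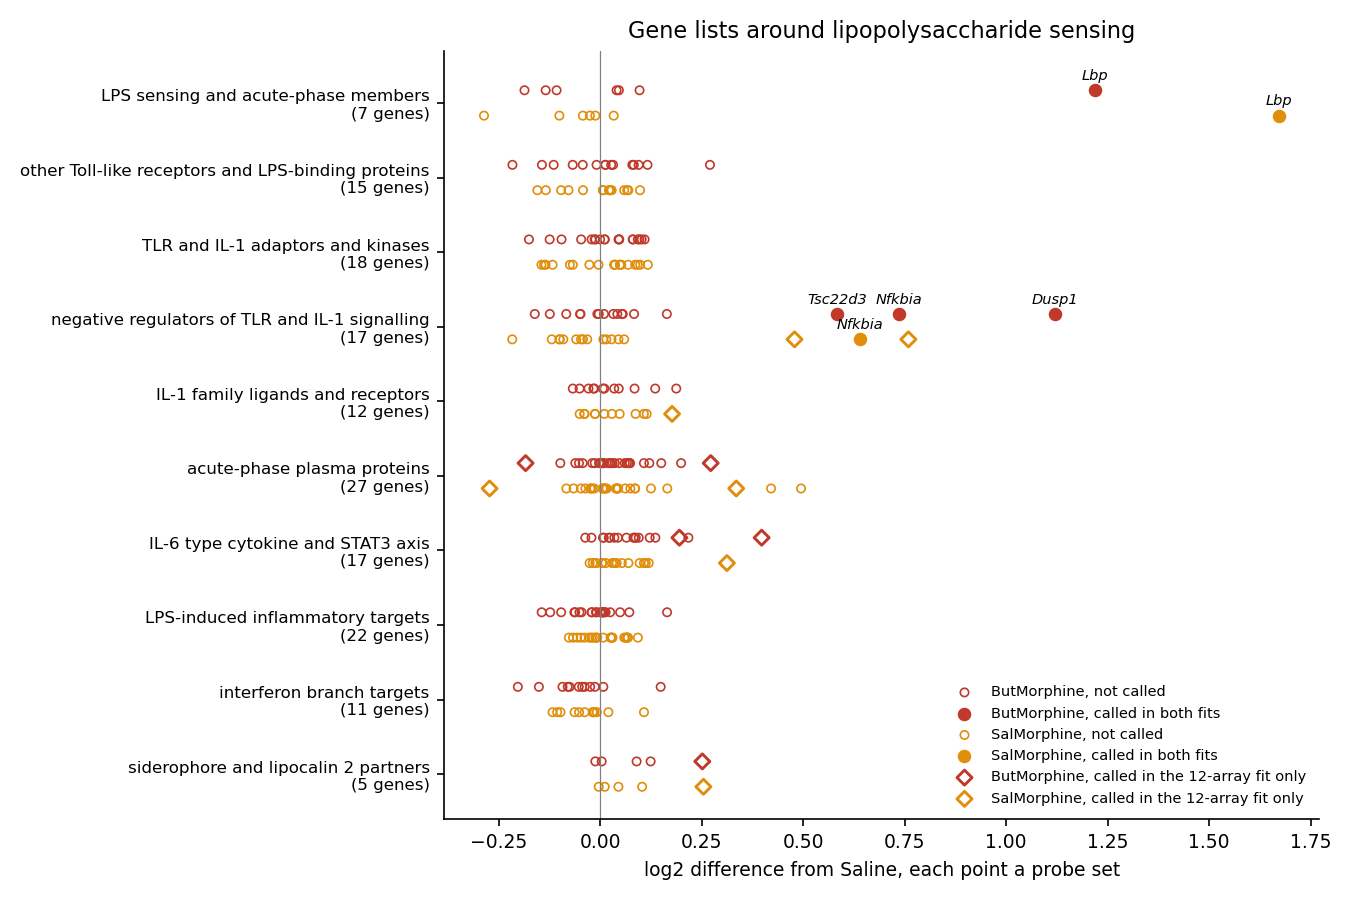
Log2 difference from Saline (x axis) of every probe set in the member list and in 9 lists of related genes, with ButMorphine above SalMorphine in each row. Filled points passed the threshold in both fits, diamonds in the 12-array fit only, and small open circles in neither, and filled points are found for Lbp and among the negative regulators only.

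The genes whose pattern over the 12 arrays was most like that of Lbp were Slc2a12 (Pearson r = 0.987), Kl (0.982), Clic6 (0.980), Kcnj13 (0.979), F5 (0.978) and Acss3 (0.977). Over the 6 morphine arrays alone r was 0.966 for Slc2a12, a sugar transporter, and between 0.705 and 0.882 for the others. These correlations share arrays and baseline and are a description. Kl, Clic6 and Kcnj13 are among the markers of choroid plexus, the epithelium that makes cerebrospinal fluid in the ventricles beside the striatum. Slc2a12 stood at 0.53 ± 0.09 in ButMorphine and 0.87 ± 0.06 in SalMorphine, and Kcnj13, a potassium channel, at 2.07 ± 0.33 and 2.58 ± 0.31 (SD, n = 3 each).

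The choroid plexus markers as a list lay above Saline in every morphine array, as Lbp did. Within groups the order of the arrays matched in part. Both were lowest in ButMorphine 2 and highest in SalMorphine 2 within their groups. Lbp was highest in ButMorphine 3 and lowest in SalMorphine 1, and the marker mean in ButMorphine 1 and SalMorphine 3. The mean of the 11 measured markers was 1.03, 0.77 and 1.01 in the ButMorphine arrays and 1.22, 1.29 and 1.06 in the SalMorphine arrays, against -0.10 to 0.10 in Saline. All 11 had a higher mean in both groups than in Saline. In the 12-array fit 10 were called higher in ButMorphine and 11 in SalMorphine, where 1.76% and 1.3% of all probe sets were. In the 8-array fit 4 and 8 were, against 0.147% and 0.142% of all probe sets. The list was written with earlier results of these data known, so these counts are no independent evidence. The defining marker Ttr, the thyroid hormone carrier of this epithelium, stood at 3.42 ± 0.23 in ButMorphine and 3.75 ± 0.08 in SalMorphine (SD, n = 3 each), and at 1.90 in both groups under quantile normalization. Folr1, a folate receptor, stood at 0.56 ± 0.16 in ButMorphine and 0.96 ± 0.21 in SalMorphine, and Sostdc1, a BMP and Wnt inhibitor, at 0.79 ± 0.16 and 1.16 ± 0.23. Between ButMorphine and SalMorphine the marker mean differed by -0.25, in the same direction as Lbp at -0.45, and all 11 markers were lower with butyrate, none of them past the threshold. The part of choroid plexus tissue in the Lbp values was not tested, and in these bulk samples more cells of a type and more RNA per cell cannot be told apart.

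The microglia markers lay below Saline in both morphine groups, as did the means of Tlr2, Myd88 and Cd14. Tlr4 and Ly96 lay above 0 in ButMorphine, at means of 0.04 and 0.05, and near 0 in SalMorphine, at -0.01 and -0.03. The mean of 11 measured markers was between -0.16 and -0.08 in ButMorphine and between -0.19 and -0.10 in SalMorphine, against -0.06 to 0.06 in Saline, and all 11 had a mean below Saline in both groups. Cx3cr1, the fractalkine receptor of microglia, stood at -0.32 ± 0.06 in ButMorphine and -0.30 ± 0.07 in SalMorphine, and Itgam at -0.13 ± 0.03 and -0.21 ± 0.08 (SD, n = 3 each). Cx3cr1 passed in both groups and Itgam in SalMorphine, in the 12-array fit only. The 9 endothelial markers averaged -0.20 in ButMorphine and -0.28 in SalMorphine, and 7 of 9 lay below 0 in ButMorphine and 9 of 9 in SalMorphine. Cldn5, Flt1, Kdr and Tek were called lower in both groups in the 12-array fit. Kdr, a VEGF receptor of endothelium, fell in both groups and in both fits, to 0.664-fold of Saline in ButMorphine and 0.644-fold in SalMorphine. Tek, the angiopoietin receptor, stood at -0.28 ± 0.06 in ButMorphine and fell in SalMorphine in both fits, at -0.38 ± 0.04. Cldn5, a tight junction protein, stood at -0.74 ± 0.09 in ButMorphine and -0.57 ± 0.12 in SalMorphine, and Flt1, another VEGF receptor, at -0.18 ± 0.06 and -0.30 ± 0.03. The part of these cells in the Tlr2, Tlr4, Ly96, Myd88 and Cd14 values was not tested.

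Neutrophils carry much lipocalin 2 and blood monocytes much CD14. The list of neutrophil and blood markers gave no call. It held no marker chosen for monocytes, and its haemoglobin genes Hba-a1 and Hbb-b1 were not measured. The part of blood cells in the Lcn2 and Cd14 values was not tested. The mean of 8 measured neutrophil and blood markers was between 0.02 and 0.03 in ButMorphine and between -0.03 and 0.04 in SalMorphine, against -0.03 to 0.03 in Saline. Among them S100a8 stood at -0.04 ± 0.04 in ButMorphine and -0.07 ± 0.02 in SalMorphine, and Ngp at 0.04 ± 0.04 in each group. The 6 perivascular macrophage markers averaged -0.00 in ButMorphine and -0.03 in SalMorphine, also with no call, and there Ms4a7 stood at -0.01 ± 0.01 and -0.04 ± 0.01 and Mrc1 at -0.01 ± 0.12 and -0.07 ± 0.04. Of 8 astrocyte markers 1, Gjb6, was called higher in both groups, in the 12-array fit only, at 0.31 ± 0.05 in ButMorphine and 0.41 ± 0.08 in SalMorphine. Of 10 meningeal and pericyte markers, Igf2 rose in both fits, at 0.62 ± 0.13 in ButMorphine and 0.85 ± 0.10 in SalMorphine (SD, n = 3 each). Rgs5, a pericyte marker, stood at -0.11 ± 0.09 in ButMorphine and was called lower in SalMorphine in the 12-array fit only, at -0.26 ± 0.08. In each group 4 of these 10 markers lay below 0, and the list's median was 0.03 in ButMorphine and 0.02 in SalMorphine. The 6 measured striatal neuron markers averaged 0.01 in ButMorphine and -0.12 in SalMorphine, with 4 of 6 below 0 in ButMorphine and 6 of 6 in SalMorphine. Drd2, a dopamine receptor, stood at -0.04 ± 0.07 in ButMorphine and was called lower in SalMorphine in the 12-array fit only, at -0.16 ± 0.03. All 6 had a higher mean in ButMorphine than in SalMorphine, none past the threshold.

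**Figure D3:**
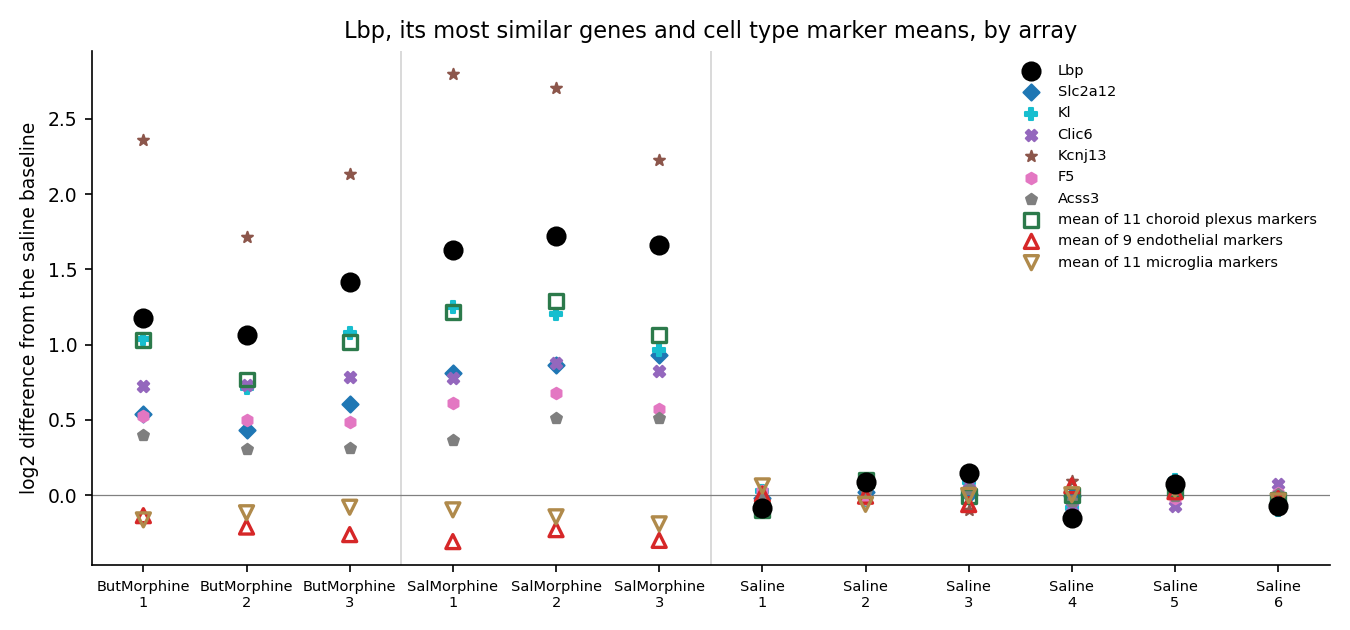
Log2 difference from the saline baseline (y axis) in each of the 12 arrays (x axis) for Lbp, the 6 genes most like it and the means of 3 marker lists. Lbp and the choroid plexus mean are above every Saline array in all 6 morphine arrays, while the endothelial and microglia means lie below 0 there.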

How the data were processed

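RNA was measured on Affymetrix Mouse Gene 1.0 ST arrays, 1 array for each of 12 pools of 4 mice, per the labels' protocols. The authors deposited 1 table of 28815 rows of differences from a baseline, taken here as log2 values that the authors centred on saline arrays. The base was taken because all 7 members' rounding steps fit stored values of 4 to 8. Neither the log base nor the background correction, normalization or summarisation is given in the sources used here. Centred values keep no level beyond this coarse class and no signal over background, and with few arrays the precision is limited.

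Gene symbols came from the platform annotation. Of the rows, 21780 had exactly 1 symbol and were tested, 1605 had several and 5430 had none. The RefSeq table of GRCm38.p6 matched 21689 of the tested rows and gave the promoter windows.

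The main test was limma 3.58.1 (R 4.3.3), with lmFit and eBayes over 12 arrays and 3 group means. P-values were adjusted by Benjamini-Hochberg over the 21780 rows, with a threshold of 0.05. The 8-array fit, with Saline 1 and 2 as Saline, was added after the shared baseline was seen in exactly equal values (tolerance 3e-09). It had 5 residual degrees of freedom against 9 for 12 arrays, where the mirrored Saline arrays are counted as separate. Both fits were tested on simulated data. The members, lists and alternatives were chosen with earlier results of these data known. From each list the text names the genes past the threshold in any comparison, up to 6 by lowest p, or else the 2 with the lowest p in SalMorphine against Saline. It also names up to 6 genes most like Lbp over the arrays. The alternative filter on dim probe sets left no member.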

Additional observations from a re-analysis of the deposited data

How the results depend on the processing

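No member or related gene was called between ButMorphine and SalMorphine under any alternative run. The counts of members against Saline come from the contrasts that chose them, so they are given as a description and nothing is read from them. Quantile normalization narrows the morphine arrays and widens the Saline arrays. It lowered the Lbp difference from Saline to 0.86 in ButMorphine and 1.01 in SalMorphine, and that between the morphine groups to -0.15. Without each array in turn, it was 1.12 to 1.29 in ButMorphine, 1.64 to 1.70 in SalMorphine and -0.55 to -0.38 between them. The count of members higher stayed at 1, and that of members lower in SalMorphine was 1 (Myd88) in place of 0 when Saline 5 and 6 were left out, or at an adjusted p of 0.1, and 0 to 1 with 1 array left out, the 1 being without Saline 5. The related genes called against Saline changed more. Of 7 higher and 1 lower in ButMorphine, quantile normalization left 4 and 0, array weights 2 lower, only the groups compared 2 lower, mirror pairs counted once 4 and 0 either way, each saline pair left out 4 and 0, only Saline 1 and 2 as Saline 3 and 0, an adjusted p of 0.01 4 and 0, and an adjusted p of 0.1 11 and 3. Of 7 higher and 1 lower in SalMorphine, quantile normalization left 4 higher, mirror pairs counted once 3 and 0 or 4, Saline 3 and 4 or Saline 5 and 6 left out 4, only Saline 1 and 2 as Saline 1 and 0, an adjusted p of 0.01 4 higher, and an adjusted p of 0.1 2 lower. The filter to stored values of 8 or more left 18 genes and 1 call higher in each group. With 1 array left out, 4 to 8 were higher and 0 to 2 lower in ButMorphine, and 4 to 9 and 1 to 3 in SalMorphine. The 1 lower call in ButMorphine, Rbp4, was 0 without ButMorphine 2 or 3 or Saline 1, 2, 3 or 6, and 2 were lower without ButMorphine 1 or SalMorphine 2, while 3 were lower in SalMorphine without SalMorphine 1. Fewer arrays or genes enter several of these fits, and otherwise the cause was not tested. Same-numbered ButMorphine and SalMorphine arrays deviated from their group means with correlations of -0.10, -0.27 and -0.23, so the numbers do not pair the arrays; with the replicate block, 3 higher and 0 lower were called in ButMorphine and 2 and 0 in SalMorphine. Over single genes and alternatives, 3280 values were counted as unchanged, 224 lost a call and 7 gained one. Member differences from Saline were judged by their move instead, and 11 moved by at least the SD of the morphine group. The unchanged values include genes that were called neither in the main fit nor in the alternative. They are therefore no measure of how stable the calls were.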
